A study of Mus musculus with 8 samples.

Results

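Pre-iPSCs, cells caught partway through reprogramming, carried either a Nanog transgene or only empty vectors, and their RNA levels were compared across genes. The Nanog group had the Nanog vector and an empty vector, and the empty-vector group (EV) had 2 empty vectors. Every vector was a PiggyBac transposon with a CAG promoter, put in with transposase and kept by selection of stable lines with hygromycin, blasticidin or both. All cells were female, of a 129/MF1 background, derived from neural stem cells, fitted with an Oct4-GFP-IRES-puro reporter, and taken at day 0 of reprogramming from serum with LIF. The comparison used 4 of the 8 arrays of the series, 2 for each group. The labels call them replicates without naming separate cultures or clones, so p-values measure only the spread between these arrays. The other arrays came from the same cells with Sin3a, or with Nanog and Sin3a together. Probes were included when their intensity was above 16 on at least 2 of the 4 arrays, which took 16741 of 45281 probes (37.0%), and values below 16 were raised to it (the floor, 4 on the log2 scale).

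The homeodomain protein Nanog acts in the inner cell mass and in embryonic stem cells. It binds many of the same enhancers as Oct4 and Sox2, can activate or repress its targets, and lets stem cells self-renew with less LIF. In reprogramming it acts late, when cells stalled as pre-iPSCs pass to the naive state, and these arrays show the cells before the medium that drives that step.

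The identity of the cells was checked on marker genes. Pou5f1, which encodes Oct4, read 1046 and 1167 on the EV arrays and 957 and 1083 on the Nanog arrays. Whether this RNA came from the cells' own gene was not tested. The probes of Sox2, Esrrb and Utf1 were at the floor on all 4, so several pluripotency markers were not measured in either group. Among 8 neural stem cell markers, 6 were at the floor on all 4 arrays, including Pax6, Sox1 and Olig2, and Nes and Egfr were not. Of 5 myeloid and blood markers Lyz2, Csf1r, Spi1 and Hba-a1 were at the floor on all 4 arrays, and Ptprc was above it on the first Nanog array alone. At the floor on all 4 were also Col1a2, Col3a1, Lum, Pdgfrb and Postn of the fibroblast list, but Thy1 and Twist1 of it were above the floor on all 4. So were Stmn2 of the neuron list, Dab2 of primitive endoderm, Krt8 of trophectoderm and Krt14 of keratinocytes. Of the 8 streak and mesoderm markers, 6 were at the floor on all 4 arrays. In bulk RNA, fewer cells of a type and less RNA per cell cannot be told apart. The second Sin3a array differed by over 1 (log2) from the first EV array in 78.8% of the 6752 probes with a mean of 5 to 8, against 0.313% between the EV arrays, and was left out.

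Nanog RNA was present in the Nanog group and at the floor in EV. Its probe read -3.6 and -5.4 on the EV arrays and 365 and 486 on the Nanog arrays, at least 26.3-fold higher (log2 4.72, SE 0.17, adjusted p = 0.000242). RNA from the vector and from the cells' own gene cannot be told apart by this probe. A second Nanog probe read 14.4 and 13.8 with EV and 21.0 and 13.0 with Nanog and was not tested. Sin3a, a scaffold of histone deacetylase complexes, was at 329 and 262 with EV and 344 and 472 with Nanog, a difference of 0.46 that did not pass (adjusted p = 0.2).

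Nanog changed 472 of the 16741 tested probes (2.82%), 244 up (1.46%) and 228 down (1.36%), in limma's test over 6 arrays that also took the Nanog+Sin3a arrays for the spread. With 1 probe for each gene, the one of highest mean, 274 of 9267 named genes were called (2.96%), 173 up (1.87%) and 101 down (1.09%). Of the rising probes 202 were above the floor on all 4 arrays, with a median rise of 1.05 on the log2 scale and 12 over 2. Of the falling probes 153 were, with a median fall of 1.06 and 11 over 2. A further 28 rising and 58 falling probes were at the floor in 1 of the groups, and these had to differ to be included. Without any 1 of the EV or Nanog arrays limma called 0 probes, with 2253 or 1996 at an unadjusted p under 0.05 when an EV array was dropped (replicate 1 or 2) and 4237 or 2416 when a Nanog array was. A fit of all 8 arrays, with the noisy Sin3a array in it, also called 0, with 1410 at an unadjusted p under 0.05. Arrays that did not overlap were far more common than calls, at 29.2% of genes upward and 25.4% downward.

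**Figure D1:**
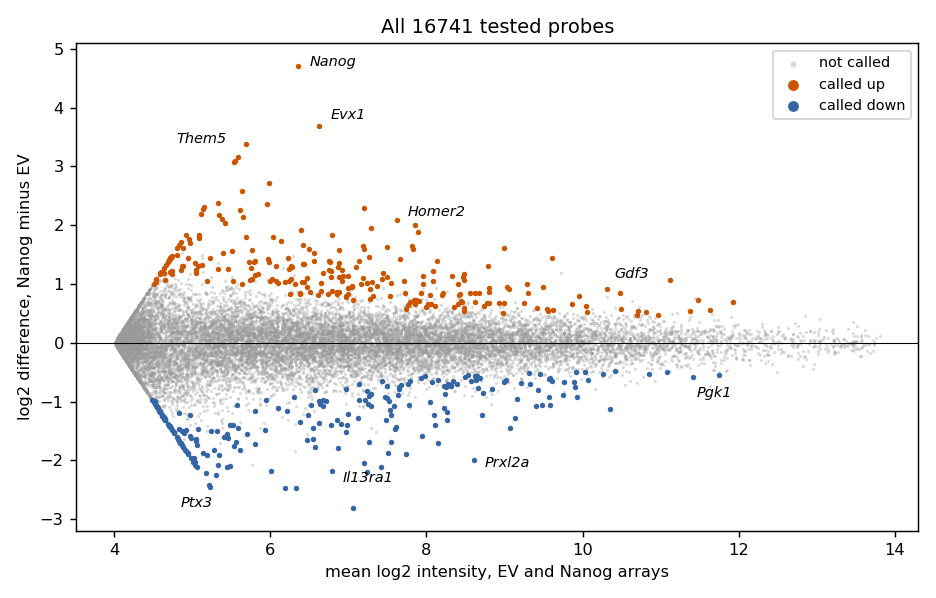
Each point is 1 of the 16741 tested probes, with the mean log2 intensity of the 4 arrays on the x axis and the log2 difference, Nanog minus EV, on the y axis. The 244 probes called up are orange and the 228 called down are blue, and the slanted edges at the left are probes at the floor in 1 group.

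Among genes with a symbol that were measured on all 4 arrays, Evx1 and Palmd had the largest rises. Evx1, a homeobox gene of the posterior primitive streak, read 28.7 and 26.5 on the EV arrays and 392 and 322 on the Nanog arrays, 12.9-fold higher (log2 3.69, SE 0.16, adjusted p = 0.0004). The EV arrays sit just above the floor and far below both Nanog arrays. The streak and mesoderm markers Mixl1, Mesp1, Gsc, Tbx6, Kdr and Wnt3 were at the floor on all 4 arrays. Palmd, which encodes a membrane-linked relative of paralemmin, went from 21.1 and 28.8 to 151 and 176 (6.62-fold, log2 2.73, SE 0.20, adjusted p = 0.00254), and its other probe gave 2.26.

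The promoters below are shown because they belong to genes that rose and hold TAATGG, a site that the Nanog homeodomain can bind, on the strand opposite to the gene (written CCATTA, in capitals). They run from 250 bases before the start to 50 after it, on the plus strand of GRCm38.p6, from RefSeq.
Evx1 chr6:52313248-52313547: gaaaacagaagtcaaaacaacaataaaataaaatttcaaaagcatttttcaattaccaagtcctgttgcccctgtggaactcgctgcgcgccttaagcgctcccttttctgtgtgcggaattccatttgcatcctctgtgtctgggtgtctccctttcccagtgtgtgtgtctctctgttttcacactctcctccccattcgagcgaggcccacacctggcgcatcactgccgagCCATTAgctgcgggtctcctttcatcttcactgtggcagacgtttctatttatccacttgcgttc
Sprr2d chr3:92338890-92339189: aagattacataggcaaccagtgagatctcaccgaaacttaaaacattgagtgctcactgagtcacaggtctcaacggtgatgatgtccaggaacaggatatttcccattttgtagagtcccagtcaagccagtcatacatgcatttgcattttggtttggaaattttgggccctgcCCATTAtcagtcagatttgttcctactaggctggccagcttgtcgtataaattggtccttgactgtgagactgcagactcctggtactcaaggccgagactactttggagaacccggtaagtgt
Prnp chr2:131909678-131909977: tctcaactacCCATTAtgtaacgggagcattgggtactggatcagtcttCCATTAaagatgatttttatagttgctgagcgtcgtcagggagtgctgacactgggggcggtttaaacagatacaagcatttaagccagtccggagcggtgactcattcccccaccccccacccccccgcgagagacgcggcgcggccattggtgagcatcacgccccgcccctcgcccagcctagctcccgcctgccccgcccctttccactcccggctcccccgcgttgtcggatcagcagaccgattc
The match begins 15 bases before the start in Evx1, 74 before it in Sprr2d, and 240 and 201 before it in Prnp. TAATGG, read on both strands, was in 16 of 191 windows of genes called up (8.38%), 6 of 106 windows of genes called down (5.66%) and 464 of 9675 windows of tested genes (4.8%), against 2539 of all 32851 windows (7.73%). A match of 6 letters is a description of the window, not a bound site.

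**Figure D2:**
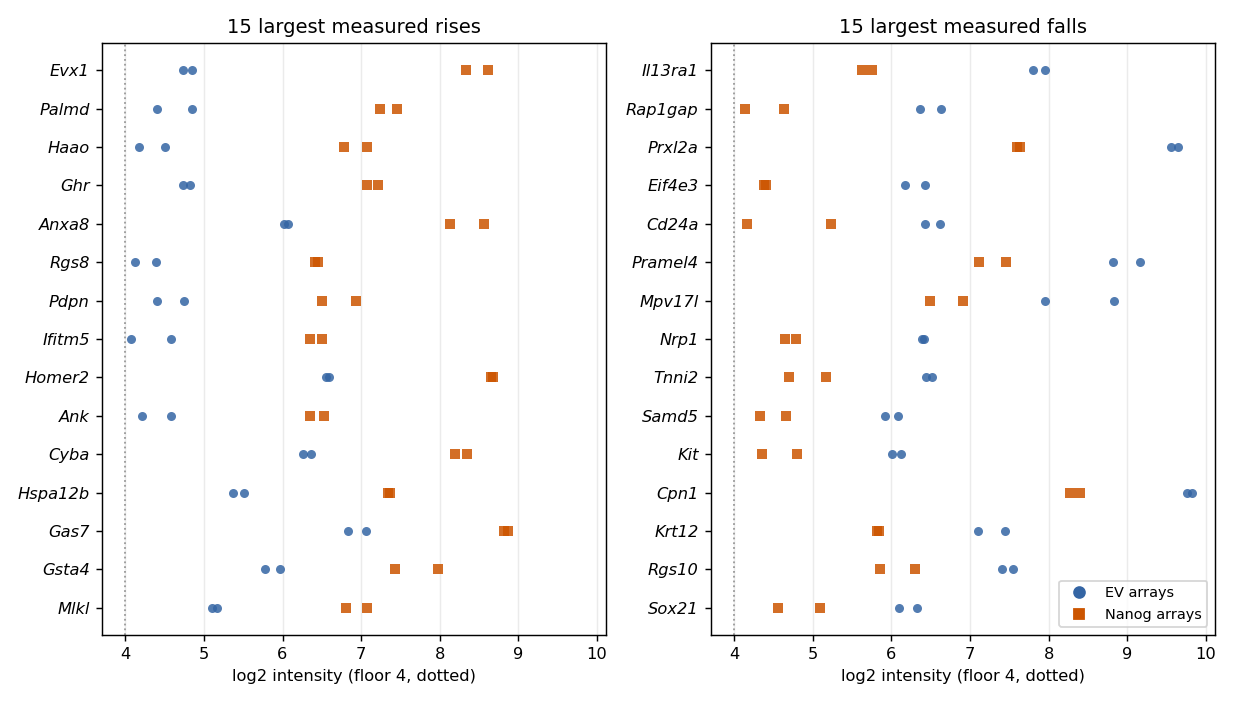
Log2 intensity of each array for the 15 largest rises (left) and 15 largest falls (right) among called genes above the floor on all 4 arrays, with EV arrays as blue circles and Nanog arrays as orange squares. In every gene shown the groups do not overlap, which the rule for choosing them required.

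Several of the other large rises encode enzymes and membrane proteins. Haao, an enzyme of the kynurenine pathway from tryptophan to NAD, went from 22.7 and 18.1 to 110.1 and 135 (6.02-fold, adjusted p = 0.00737), and its other probe gave at least 1.44. Anxa8, a calcium-dependent membrane-binding annexin, went from 65 and 67.2 to 280.5 and 378 (4.93-fold, adjusted p = 0.00254), with at least 1.79 in its other probe. Pdpn, the surface glycoprotein podoplanin, read 21.1 and 26.8 against 122 and 90.5 (log2 2.15, adjusted p = 0.0103). Cyba, a subunit of the NADPH oxidase, read 82.2 and 76.7 against 293 and 325 (log2 1.96, adjusted p = 0.00227). In each of these genes both Nanog arrays stood clear of both EV arrays, which the rule for naming them required. Mlkl, the effector of necroptosis, rose by 1.80, Hspa12b, a distant member of the Hsp70 family, by 1.92, and Ank, a pyrophosphate transporter, by 2.04. Gas7, a protein of the actin cytoskeleton with 3 tested probes, rose in all 3, by 1.89, 1.23 and 1.10.

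Falls of like size were seen in receptors and signalling regulators. Il13ra1, a receptor subunit for interleukin-13, was at 249 and 223 with EV and 54 and 49.3 with Nanog (log2 -2.19, SE 0.16, adjusted p = 0.00254). Rap1gap, which turns off the GTPase Rap1, was at 99.4 and 82.3 with EV and 24.7 and 17.6 with Nanog (log2 -2.12, adjusted p = 0.00892). Nrp1, a co-receptor for semaphorins and VEGF, fell in both of its probes, from 85.4 and 83.9 to 25 and 27.6 in the brighter one (log2 -1.69, adjusted p = 0.00892) and by 1.62 in the other. In each of these 3 genes both Nanog arrays were below both EV arrays, which the rule for naming them required. Prxl2a, a peroxiredoxin-like gene, fell from 799 and 755 to 194 and 198 (log2 -1.99, adjusted p = 0.00254), with -2.47 in its other probe. Eif4e3, a variant of the cap-binding factor, fell by 1.91 in its brighter probe and at least 1.77 in the other, and Krt12 gave -1.45 and -1.65. Cpn1, a carboxypeptidase subunit, fell by 1.45 in its brightest probe and 1.07 in the next, while its dimmest, near the floor, gave -0.15 or lower. Mpv17l was not the same across its probes, at -1.70 (adjusted p = 0.0284) in the brightest and at least 1.13 (adjusted p = 0.0715) in another. The other named falls measured on both sides were Cd24a (-1.82), Pramel4 (-1.71), Tnni2 (-1.55), Samd5 (-1.51), Kit (-1.49), Rgs10 (-1.41) and Sox21 (-1.39).

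Some genes were above the floor in 1 group only, so their changes are lower bounds. With EV at the floor, Them5, a mitochondrial acyl-CoA thioesterase, read 122 and 168 on the Nanog arrays (at least 8.94-fold, adjusted p = 0.00227). Nptx2, a secreted synaptic pentraxin, read 162 and 114 (at least 8.5-fold), and Sprr2d, a protein of the cornified envelope of skin, 134 and 138 (at least 8.47-fold). Igfbp6, Fam20a, Ccnjl and Ankrd1 came up from the floor as well, by at least 2.28, 1.84, 1.66 and 1.62 on the log2 scale. On the other side, Ptx3, a pentraxin of matrix and innate immunity, was at 86.8 and 88.4 with EV and at -14.7 and -3.9 with Nanog (at least 5.47-fold lower). Asic1, an acid-sensing sodium channel, was at 64.5 and 70.5 with EV and under the floor with Nanog (at least 4.21-fold lower). Dkc1, Rbmxl1, Spink10, Dynlt1b and Mfng were also lost from the measured range. A230083G16Rik read 84.5 and 87.2 with EV and -10.9 and -6.5 with Nanog, but it was at -10.9 and -11.3 with Nanog+Sin3a and -9 on the first Sin3a array. It was thus above the floor only on the EV arrays among these 7.

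The remaining genes are given by group, from 29 lists that were chosen with earlier results of these data known, so a count is a description and the share over all genes (2.96% called) stands beside it. Members beyond the 4 largest changes of a list, and most of those given as not passing, were picked after their values were seen. Members at the floor on both arrays of 1 group were included through the other group. Their direction was fixed by that, so they lend a list count no support. In the growth hormone and insulin-like growth factor axis, which links a pituitary hormone to local growth factors and their binding proteins, 6 of 18 tested genes rose and 0 fell (33.3%). The median difference was 0.40, against 0.01 over all genes, and 16 of the 18 were above 0. Above the floor on all 4 arrays were 15 of the 18, and Igfbp6, at the floor on both EV arrays, could only rise. Ghr, the growth hormone receptor, read 26.6 and 28.4 with EV and 149 and 135 with Nanog (log2 2.36, SE 0.19, adjusted p = 0.00254). Its second probe, near the floor, gave at least 0.72. Igfbp7, a secreted binding protein, read 232 and 245 with EV and 490.4 and 465 with Nanog (log2 1.00, adjusted p = 0.00541). Among the binding proteins Igfbp6 and Igfbp5 (1.18) rose too, while Igfbp3 was at 473 and 580.2 with EV and 360.3 and 216 with Nanog and did not pass (log2 -0.91, adjusted p = 0.0962). Grb10, an adaptor that restrains insulin receptor signalling, rose by 0.81 and Htra1, a protease that cleaves binding proteins, by 0.84. The receptors themselves did not pass, with Igf1r at 0.24 and Insr at -0.25, nor did Stat5a at 0.34, Jak2 at 0.34 and Socs2 at 0.49. In the fit of the 4 EV and Nanog arrays alone, 3 of the 18 were called.

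**Figure D3:**
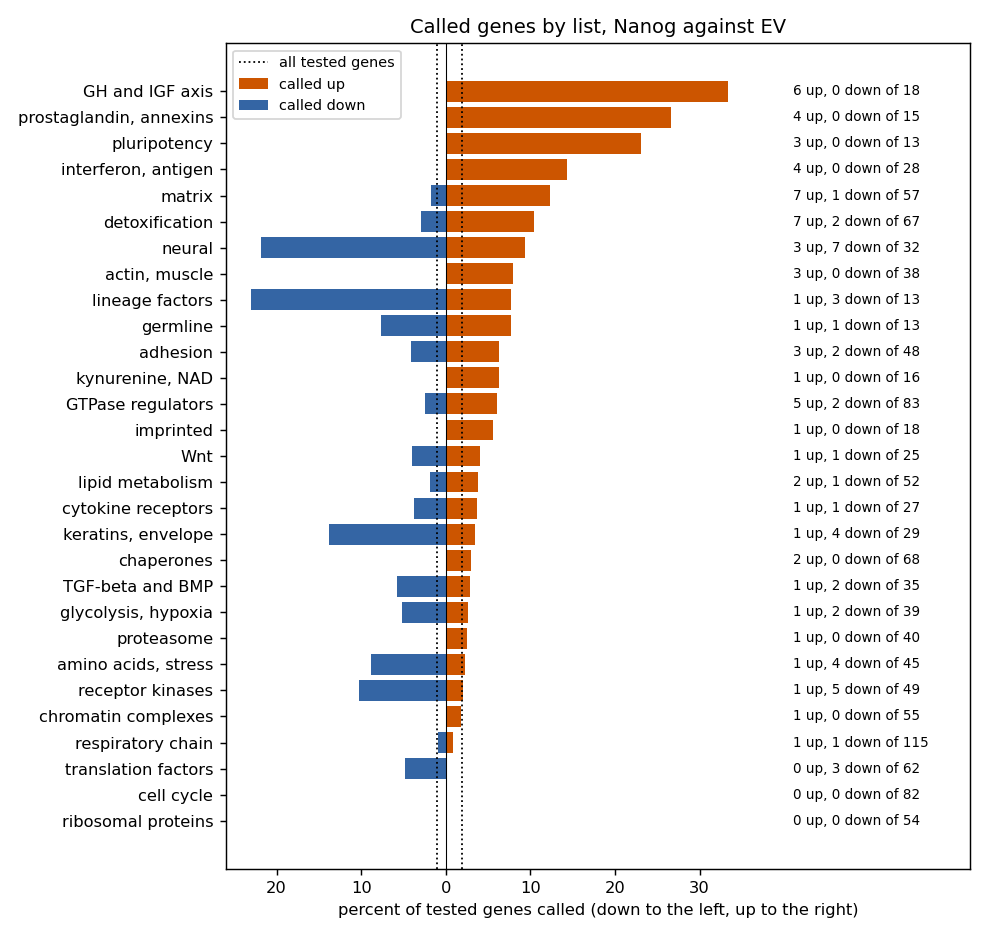
Percent of tested genes called up (orange, to the right) and down (blue, to the left) in each of the 29 lists, with the counts at the right and dotted lines at the percent over all 9267 genes (1.87% up and 1.09% down). The growth hormone and IGF axis has the longest bar upward, and neural genes and lineage factors the longest downward.

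Among signalling families, ligands, receptors and inhibitors moved singly. Of 25 Wnt genes 1 rose and 1 fell. The non-canonical ligand Wnt5a came up from the floor to 76.3 and 82.6 (at least 4.96-fold), and Fzd3, a Wnt receptor of developing neurons, fell from 41.6 and 41.4 to the floor. Wnt5b, at the floor with EV and 19.5 and 42.5 with Nanog, and the secretion factor Wls (0.68) did not pass. Of 35 genes of TGF-beta and BMP signalling 1 rose and 2 fell. Gdf3, a ligand, rose from 948 and 911 to 1613 and 1894 (log2 0.91, adjusted p = 0.0127), and Id2, a BMP-responsive inhibitor of helix-loop-helix factors, fell from 193 and 244 to 91 and 88.3 (log2 -1.28, adjusted p = 0.0118). Id2 fell by 1.24 in a second probe and gave -0.68 in another, which did not pass (adjusted p = 0.103). Its relatives differed from it in sign, with Id1 at 0.14 (adjusted p = 0.602) and Id3 at 0.72 (adjusted p = 0.0764), neither of which passed.

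Among 49 receptor tyrosine kinases, their ligands and ERK feedback genes, 5 were called down and 1 up (12.2%). The list as a whole was balanced, with 23 genes above 0, 26 below and a median of -0.04. Kit, the receptor for stem cell factor, was at 64.2 and 69.8 with EV and 27.7 and 20.4 with Nanog (log2 -1.49, adjusted p = 0.0202). The related receptors Axl (log2 -0.61, adjusted p = 0.0418) and Mertk (log2 -1.06, adjusted p = 0.0498), which bind Gas6, fell. Egfr fell by 0.66 in its brightest probe, and its 4 other probes gave -0.41 to -0.88 without passing. Ephb1 fell by 0.65, and Flt1, a VEGF receptor, rose from 143 and 138 to 256 and 231 (log2 0.79, adjusted p = 0.0178). Ligands and ERK feedback genes of the list did not pass. Of 27 cytokine receptor and Jak-Stat genes, Il13ra1 fell and Il6ra, the ligand-binding receptor for interleukin-6, rose from 96.7 and 87.9 to 171 and 182 (log2 0.94, adjusted p = 0.0242).

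In the pluripotency list 3 of 13 tested genes rose and 0 fell, and 1 of the 3 was Nanog itself. Besides Gdf3, Gbx2, a homeobox gene that supports self-renewal, came up from the floor to 48.8 and 33 (at least 2.51-fold, adjusted p = 0.0402). Pou5f1 (log2 -0.12, adjusted p = 0.628), Klf4 (log2 0.25, adjusted p = 0.501) and Sall4 (log2 -0.67, adjusted p = 0.0861) did not pass. A further 18 genes of the list were on the array and not tested, Sox2 and Esrrb among them. Lineage factors gave 1 rise, Evx1, and 3 falls among 13. The falls were Hoxa5 from 140.3 and 156 to 72.8 and 75.3 (adjusted p = 0.019), Tfap2a (-0.76, but 0.10 in its other probe), a factor of trophectoderm and neural crest, and the homeobox factor Meis1 (-0.71).

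More matrix genes rose than fell. Of 57 tested 7 rose and 1, Ptx3, fell, 41 were above 0, and the median was 0.21, against 0.01 over all genes. Above the floor on all 4 arrays were 40 of the 57, among them the 7 that rose. Nid1, Plau, Dcn, Mmp3 and Col11a2, at the floor on both EV arrays, could only be above 0. Ptx3 and Col27a1, at the floor on both Nanog arrays, could only be below it. Tnc, the matrix glycoprotein tenascin-C, went from 25.3 and 20.3 to 54.8 and 69.4 (log2 1.44, adjusted p = 0.0257), and 1.36 in its other probe. Mgp, an inhibitor of calcification, went from 64 and 71.4 to 136 and 174 (log2 1.19, adjusted p = 0.0191). Lamb2, a laminin chain, rose by 0.87, and Loxl4, Prelp, Timp2 and Sparc rose by 0.84, 0.68, 0.67 and 0.66. Nid1, a basement membrane linker, was at the floor with EV and at 56 and 58.2 with Nanog and did not pass (adjusted p = 0.0569). Of 48 adhesion and surface genes 3 rose and 2 fell, with 23 above 0 and 25 below. Thy1, a surface glycoprotein of fibroblasts, went from 218 and 216 to 508 and 444 (log2 1.13, adjusted p = 0.00738). The summed intensity of the 9 fibroblast markers was 482 and 451 with EV and 766 and 689.9 with Nanog, of which Thy1 and Twist1 made up most, and its part in these changes was not tested. Prnp, the prion protein, went from 1063 and 1061 to 1998 and 1841 (log2 0.85, adjusted p = 0.00737), and Gpc1 rose by 0.56. Cd24a and Cdh4, a cadherin of the nervous system that went from 45.4 and 44.1 to the floor, fell.

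Keratins and genes of the cornified envelope gave 4 falls and 1 rise among 29 (17.2%), of which 14 were above the floor on all 4 arrays. Krt13, Ppl and Sprr2d were at the floor on both arrays of 1 group, so inclusion fixed their direction. Besides Krt12, the falls were Krt20, Krt13 and the envelope linker Ppl, and the rise was Sprr2d. Krt20 went from 55 and 61.5 to -2 and 21.8 (log2 -1.64 or lower, adjusted p = 0.0168). To the floor on both Nanog arrays went Krt13 (at least 2.42-fold lower, adjusted p = 0.0266) and Ppl (at least 2.65-fold lower, adjusted p = 0.019). Krt8 (log2 -0.45, adjusted p = 0.133) and Krt14 (log2 0.30, adjusted p = 0.199), which are far brighter than the floor, did not pass. The keratinocyte markers Krt5, Krt15, Trp63 and Ivl were at the floor on all 4 arrays. Of 38 actin and muscle genes 3 rose, namely Palmd, Csrp1 (0.55) and Tpm2, a tropomyosin that went from 0 and -8.5 to 45.9 and 40.8. Tpm2 was at -5.6 and 0.4 on the Nanog+Sin3a arrays. Among 83 GTPase genes and regulators 5 rose and 2 fell, with Arhgdib at 478 and 470.2 with EV and 1165 and 1439 with Nanog (log2 1.45, adjusted p = 0.00738). Rgs8 (2.17), Cdc42ep5 (1.43), Rhoj (1.26) and Arhgef3 (1.05) rose, and Rap1gap and Rgs10 fell.

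Several glutathione S-transferases and a carbonyl reductase rose. Of 67 detoxification genes 7 rose and 2 fell (13.4%), with a median of 0.17, 45 above 0 and 22 below. Gsta4, which conjugates lipid aldehydes to glutathione, went from 62.5 and 54.7 to 173 and 252 (log2 1.83, adjusted p = 0.00738). Gstm2 went from 76 and 71.2 to 206 and 172 (log2 1.35, adjusted p = 0.00738) and Cbr3, a carbonyl reductase, from 277 and 284 to 661 and 728 (log2 1.31, adjusted p = 0.00254). Gsta2 rose by at least 1.48 and Gsta1 by 1.15, and close paralogs of this family may share probe signal. Being at the floor on both EV arrays, Gsta2 could only rise. Ephx1, an epoxide hydrolase, rose by 0.81 and Txnip, which binds thioredoxin, by 1.07. Prxl2a and the aldehyde dehydrogenase Aldh3a1, at 829 and 759 with EV and 449 and 373 with Nanog (log2 -0.95, adjusted p = 0.0113), fell. Below 0 without passing were Txnrd1 (log2 -0.73, adjusted p = 0.105), Txn1 (log2 -0.62, adjusted p = 0.137) and Gclc. Gclc, at the floor on both Nanog arrays, was at -0.93 or lower (adjusted p = 0.23).

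Smaller metabolic groups held single large changes. Slco2a1, a prostaglandin transporter, went from 19.3 and 13.6 to 91.6 and 91.5 (log2 at least 2.38, adjusted p = 0.00289). Its other probes, at the floor with EV, gave at least 1.24 and 1.03 and did not pass. Slco2a1 was the 1 rise of the prostaglandin list that is not an annexin. The annexins Anxa3 (0.69, and 0.73 in another probe), Anxa5 (0.58) and Anxa8 were the others of 4 rises among 15. In the kynurenine list Haao was the 1 call of 16. Of 52 lipid genes Them5 and Acsl6, an acyl-CoA synthetase of neurons that came up from the floor, rose, and Idi1, a step of cholesterol synthesis, fell (log2 -0.92, adjusted p = 0.0495). Eno3, the muscle enolase, went from 172 and 174 to 426 and 483 (log2 1.39, adjusted p = 0.00254), while Pgk1, the phosphoglycerate kinase, fell (log2 -0.59, adjusted p = 0.0247), with -1.73 and -0.23 in its other probes. With Ankrd37 these were the 3 calls of 39 glycolysis and hypoxia genes.

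Interferon-responsive genes and genes of antigen presentation were higher on balance. Of 28 tested 4 rose and 0 fell (14.3%), 24 were above 0, and the median was 0.31. Above the floor on all 4 arrays were 21 of the 28. Psmb8, Gbp2 and Parp14, at the floor on both EV arrays, were included through the Nanog arrays and could only be above 0. Irf1, a transcription factor of the interferon response, went from 516 and 518 to 1025 and 970.1 (log2 0.95, adjusted p = 0.00467), and its 3 other probes gave 1.11, 0.69 and 0.65. Psmb8, an immunoproteasome subunit, came up from the floor to 39.6 and 45.9 (at least 2.66-fold, adjusted p = 0.0213). Ifi27 rose by 0.70 in its brightest probe and was at 0.59 in the other, and Ifitm5, a bone-specific member of its family, went from 16.8 and 24 to 90.9 and 81.8. Gbp2 (at the floor with EV, 45.2 and 40.4 with Nanog, adjusted p = 0.0816) and Tap2 (log2 at least 0.82, adjusted p = 0.124) did not pass. Nor did B2m (log2 0.29, adjusted p = 0.175), H2-K1 (log2 0.23, adjusted p = 0.565) and Isg15 (log2 0.34, adjusted p = 0.739). The 4 genes below 0 were Ifit2 (-0.10), Ddx58 (-0.21), Ifi35 (-0.08) and Ifi30 (-0.03), which did not pass. Nfkbia and Tnip1, inhibitors of NF-kappaB signalling chosen after their values were seen, rose by 0.97 and 0.73.

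**Figure D4:**
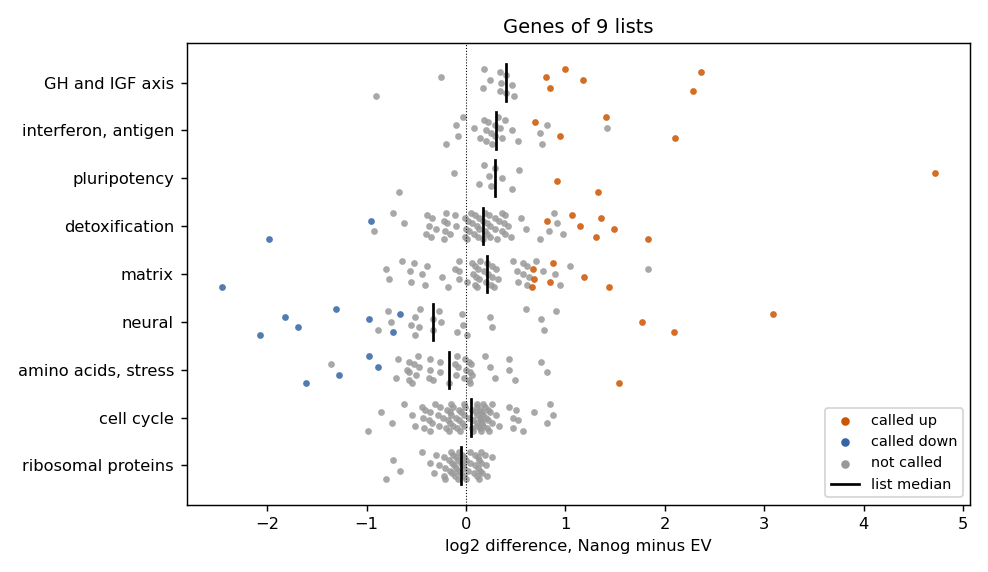
Each point is 1 gene of 9 of the lists, placed by its log2 difference, Nanog minus EV, with called genes in orange (up) and blue (down) and a black bar at the list median. The medians run from -0.33 for neural genes to 0.40 for the growth hormone and IGF axis, and no cell cycle or ribosomal gene is called.

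Neural genes were lower on balance. Of 32 tested 7 fell and 3 rose (31.2%), with a median of -0.33, and 21 were above the floor on all 4 arrays. Asic1, Syp and Nrxn2, at the floor on both Nanog arrays, could only be below 0, and Nptx2, at the floor with EV, only above it. Besides Asic1, Nrp1 and Egfr, the falls were Crym, a thyroid hormone binding protein, at 71.8 and 74.5 with EV and 26.9 and 6.4 with Nanog, and Bdnf, a neurotrophin, at 185 and 180.5 with EV and 78.7 and 69 with Nanog (log2 -1.31, adjusted p = 0.0103). Plxna2, a semaphorin receptor, fell by 0.98 and Sox11, a factor of neuronal precursors, by 0.73. Homer2, a scaffold of postsynaptic receptors, rose from 94.2 and 96.1 to 411 and 403 (log2 2.10, SE 0.10, adjusted p = 0.000599), with both pairs of arrays close together. Nptx2 and Dpysl3, a collapsin response protein, rose too, Dpysl3 by at least 1.77. Stmn2, at 1707 and 1956 with EV and 1830.5 and 1741 with Nanog, did not pass (log2 -0.03, adjusted p = 0.907), nor did Nes (log2 -0.51, adjusted p = 0.15). Of the 32 genes 22 were below 0 and 10 above. Ncam1 (log2 0.90, adjusted p = 0.0766) and Hes1 (log2 0.76, adjusted p = 0.0764) were above 0 and did not pass.

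In amino acid transport and the integrated stress response 4 of 45 genes fell and 1 rose. Slc7a3, a carrier of cationic amino acids, went from 946 and 807 to 378 and 342 (log2 -1.28, adjusted p = 0.00432), although a second probe near the floor gave at least 0.47. Trib3 was at 199.5 and 197 with EV and 93.4 and 108 with Nanog (log2 -0.98, adjusted p = 0.0183), Chac1 fell by 0.88, and Vldlr by at least 1.61 in its brightest probe. Slc7a7, another carrier, rose from 27 and 22.6 to 70.9 and 72.3 (log2 1.54, adjusted p = 0.0114). Atf4, the factor that drives Trib3 and Chac1, was at 1418 and 1547 with EV and 1272 and 777 with Nanog and did not pass (log2 -0.58, adjusted p = 0.203), and its Nanog arrays differed from each other. Of the mitochondrial genes, Cox7b fell (-0.99) and Ndufa9 rose (0.55) among 115. Of the 7 tested genes encoded in mitochondrial DNA, chosen after their values were seen, ND4L (log2 -1.39, adjusted p = 0.0329) and ATP6 (log2 -0.53, adjusted p = 0.0438) fell, and the other 5 did not pass. Of those COX2 (log2 -0.66, adjusted p = 0.177), ND1 (log2 -0.46, adjusted p = 0.0559), ND5 (log2 -0.42, adjusted p = 0.757) and CYTB (log2 -0.04, adjusted p = 0.865) were below 0 and ND4 (log2 0.03, adjusted p = 0.92) above it.

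Lists of the housekeeping machinery were called at shares around the 2.96% over all genes. The shares were 0.0% for cell cycle and ribosomal protein genes, 1.82% for chromatin, 2.5% for the proteasome, 2.94% for chaperones and 4.84% for translation. In limma 0 of 82 cell cycle genes and 0 of 54 ribosomal protein genes passed, with 24 (29.3%) and 8 (14.8%) at an unadjusted p under 0.05, against 1960 of all 9267 genes (21.2%). The members farthest from 0 in these 2 lists included Gmnn (log2 -0.98 or lower, adjusted p = 0.196), Gins1 (log2 0.88, adjusted p = 0.0656), Rpl14 (log2 -0.80, adjusted p = 0.192) and Rpl22l1 (log2 -0.74, adjusted p = 0.228). Of 55 chromatin subunits Cbx7, a Polycomb reader, rose from 32.7 and 31 to 65.7 and 66 (log2 1.05, adjusted p = 0.0284). Of 62 translation genes 3 fell, namely Eif4e3, Tpt1, from 84.3 and 102 to 29.1 and 14.2, and Pa2g4 (-0.49). Among 68 chaperones Hspa12b and Fkbp4 (0.56) rose, and among 40 proteasome subunits Psmb8 did. Rhox5, a homeobox gene of the germline and trophoblast, rose from 244 and 237 to 523 and 516 (log2 1.11, adjusted p = 0.00738) and was, with Kit, 1 of 2 calls among 13 germline genes. Grb10 was the 1 call of 18 imprinted genes.

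The same genes were read in arrays with Sin3a, where Nanog+Sin3a was set against the first Sin3a array. That difference shares no array with Nanog against EV, but it rests on 1 Sin3a array, and the Nanog+Sin3a arrays had entered the estimate of spread. Of the 244 probes called up with Nanog, 234 were above 0 there (95.9%, median 0.92), and of the 228 called down 221 were below 0 (96.9%, median -1.02). Over all 16741 probes the sign was the same in 67.5%. Evx1 was at 3.23, Il13ra1 at -1.86 and Ghr at 1.47. Gsta2 read 235 and 229 on the Nanog+Sin3a arrays and 19.5 on the first Sin3a array, a difference of 3.57 against at least 1.48 without Sin3a, where EV was at the floor. Sox21 read 39 and 43.3 on the Nanog+Sin3a arrays and 269 on the first Sin3a array, a difference of -2.71 against -1.39. The test of the difference between the Nanog effects with and without Sin3a, by limma over 7 arrays, called 0 of 16741 probes (0.0%), with 813 at an unadjusted p under 0.05 and 0 calls in the fit of all 8 arrays. For Gsta2 it gave 2.09, an upper limit because of the floor (adjusted p = 0.326), and for Sox21 -1.32 (adjusted p = 0.98).

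**Figure D5:**
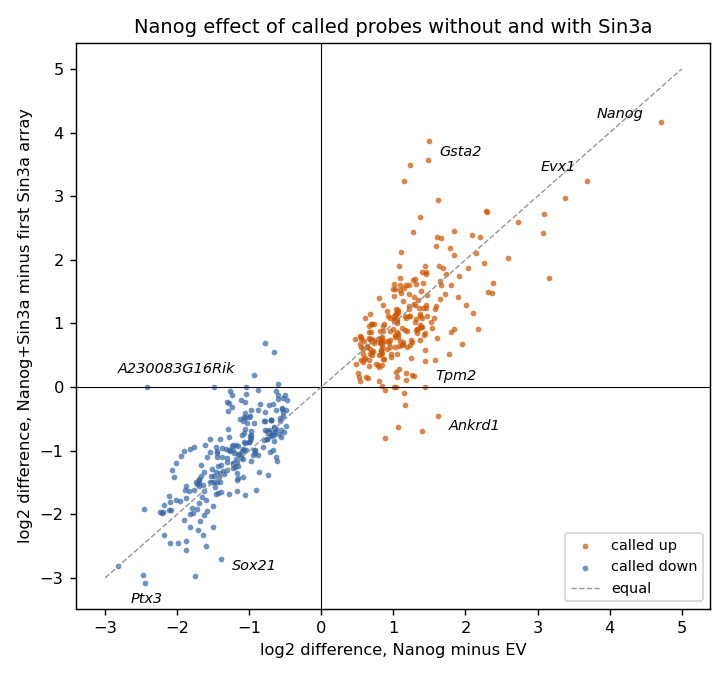
Each point is 1 of the 472 called probes, with the log2 difference of Nanog minus EV on the x axis and that of Nanog+Sin3a minus the first Sin3a array on the y axis. Of the 244 probes called up 234 lie above 0 on the y axis and of the 228 called down 221 lie below it, with Ankrd1 and Tpm2 among those that do not.

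The Nanog arrays differed from each other more than the EV arrays did. The median absolute log2 difference over tested probes was 0.21 between the Nanog arrays and 0.14 between the EV arrays. Over all tested probes the second Nanog array lay farther from the EV mean than the first in 61.3%, while among the 472 called probes it did so in 53.4%. Of 149 called genes with several tested probes, 25 had all of them called and 31 had probes that differed in sign.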

How the data were processed

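Biotinylated cRNA from total RNA was read on Illumina bead arrays, and the authors deposited 1 intensity for each probe, made with GenomeStudio, per the submitters' processing notes, with version and settings not given in the sources used here. On each array 47.3% to 47.7% of values were below 0, and all arrays had the same lowest and highest value, so the authors' intensities were taken as background-subtracted and normalised. By the platform annotation 34885 probes had a single symbol, 18 had more and 10378 lacked one. Of the first 34807 matched RefSeq by gene ID, with 0 symbols changed. Values were raised to 16, put on the log2 scale and tested probe by probe in R 4.3.3 with limma 3.58.1 (lmFit, eBayes with an intensity trend, 3 residual degrees of freedom) on the EV, Nanog and Nanog+Sin3a arrays. Tests were two-sided, and p-values were adjusted by Benjamini-Hochberg over all 16741 probes at 0.05. For arrays, their number limits the precision. The procedure was tested on simulated data, with changes placed only in probes whose EV mean was well above the floor. That test does not bear on probes with EV at or near the floor.

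The members, the lists and the omission of Sin3a arrays were chosen with earlier results of these data known. Named genes were Nanog, Sin3a, the 15 largest called rises and 15 falls measured on all 4 arrays without overlap, up to 10 of highest intensity called from or to the floor, and up to 4 called members of each list, or 2 where none was called. Other names were chosen after values were seen. A list pattern that had caught Rhox genes as GTPases was corrected after values were seen. A gene with several probes was represented by its brightest, and its other probes are not given for every gene. Alternatives varied the arrays, floor, filter, scaling, trend, probe choice and replicate block.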

Additional observations from a re-analysis of the deposited data

Results flagged for a closer look

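Ankrd1, a cardiac ankyrin repeat gene, and Ankrd37, a hypoxia target, moved one way on both Nanog arrays without Sin3a and the other way on both Nanog+Sin3a arrays, set against the first Sin3a array. Ankrd1 read 3.2 and 12.5 with EV, 52.1 and 46.5 with Nanog, 30.8 and 19.9 with Nanog+Sin3a and 33.9 on the first Sin3a array, so its Nanog effect differed by -2.07 on the log2 scale or by more in that direction, since both EV arrays were at the floor. Ankrd37 read 226 and 262, 144 and 114, 194 and 166 and 157, so its effect differed by 1.12. In limma over 7 arrays neither difference passed (adjusted p = 0.7 and 0.907), and each rests on 1 Sin3a array.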

How the results depend on the processing

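The count of 472 probes (244 up and 228 down) became 0 with all 8 arrays (1410 at an unadjusted p under 0.05). It became 249 (112 and 137) with a floor of 32, 24 (7 and 17) with no filter, 783 (413 and 370) among probes above 16 on all 4 arrays, and 221 (108 and 113) among bright probes, those with a mean log2 value above 9. Many of these were other probes, since 159 of the 249, 8 of the 24, 354 of the 783 and 58 of the 221 were among the 472. Leaving out 1 array gave 0 to 378 probes (0 to 203 up, 0 to 175 down), with 0 for each EV and Nanog array and 377 and 378 for the Nanog+Sin3a arrays. A replicate block gave 284 (157 and 127), 279 of them among the 472, but the numbers share no more than a number, since deviations of same-numbered arrays correlated at -0.05, -0.02 and -0.06. The other 8 alternatives gave 368 to 614 probes, and each held 332 to 472 of the 472. For the difference between the Nanog effects, bright probes of all 8 arrays gave 1 probe, down, a replicate block gave 0, and leaving out 1 array gave 0 to 0. Among the 105 genes named by the rule, calls were lost for 16 with 4 arrays, 17 without the trend and 22 with the block. They were lost for 48 with a floor of 32, 96 with no filter, and 100 with all 8 arrays or without any 1 EV or Nanog array. No called gene among them changed sign, but their groups did not overlap, so most alternatives could not reverse it. Sign changes of named genes that had not passed were not counted. Values near the floor limit what can be ranked, and the causes of these shifts were not tested.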

Other observations

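Some called genes outside the lists, chosen after their values were seen, are given here. The related kinases Nuak1 and Nuak2 both rose. Nuak1 went from 108 and 93.4 to 209 and 195 (log2 1.00, adjusted p = 0.0126). Nuak2 went from 20.4 and 13.8 to 59.7 and 69.6 (log2 at least 1.84, adjusted p = 0.0114). Popdc3 and Bves, 2 related membrane proteins that bind cyclic AMP, rose by 1.46 and 1.05. The cytochromes P450 Cyp4f39, Cyp4b1 and Cyp2s1 rose by 1.60, at least 1.37 and 0.65, and the glucuronosyltransferase Ugt1a10 by 1.02. Notch4, a receptor of endothelium, went from 58.1 and 52.9 to 174 and 146 (log2 1.52, adjusted p = 0.00718), and Sphk1, which makes sphingosine 1-phosphate, from 42.6 and 35.9 to 93.7 and 109.8 (log2 1.38, adjusted p = 0.0145). The kinase C substrates Marcks and Marcksl1 fell by 0.50 and 0.78. So did Ppp1r14b and Ppp1r14c, inhibitors of myosin phosphatase, by 0.56 and at least 1.09. Upp1, which cleaves uridine, fell from 1178 and 1049 to 552 and 514 (log2 -1.06, adjusted p = 0.00541). These values are of the brightest probe, and Nuak1, Bves, Ugt1a10, Marcksl1, Ppp1r14c and Upp1 have other tested probes that are not given here.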
